A study of Arabidopsis thaliana with 8 samples.

Results

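The 10 genes described here encode the enzymes that lead from phenylalanine into the phenylpropanoid pathway and on to the coumarin scopoletin in Arabidopsis thaliana. They were picked by identifier: PAL1, PAL2 and PAL4, C4H, 4CL1 and 4CL2, CCoAOMT1, F6'H1 (AT3G13610), F6'H2 (AT1G55290) and COSY (AT1G28680). Of these 10, 9 were listed in the deposited libraries, where 20690 gene identifiers were listed in all. All 9 passed the filter on low values, which left 18328 genes for testing. F6'H2 was listed in none of the 8 libraries, so its value was below 1 in each.

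Poly(A) RNA was measured by strand-specific sequencing of rosette leaves 5 to 9 of 4 week old Col-0 plants, frozen 4 hours after first light. The wild-type group (WT) and the ABI3:MTA group (mta) had 4 libraries each, and both shared the Col-0 background, soil, a 16 hour day and 22 °C. MTA is the catalytic subunit of the enzyme complex that writes N6-methyladenosine into mRNA. In ABI3:MTA plants a strong mta mutant is kept alive by an MTA copy under the promoter of ABI3, which is active mainly in the embryo, so these plants are not a mutant without any MTA. The labels do not give the line, the number of transgenic lines or whether the libraries of a genotype came from separate plants, so the spread between libraries may be partly technical.

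Phenylalanine ammonia-lyase (PAL) removes the amino group of phenylalanine to give cinnamate, cinnamate 4-hydroxylase (C4H) turns this into p-coumarate, and 4-coumarate:CoA ligase (4CL) activates it as a CoA ester. From this shared trunk come lignin, sinapate esters, flavonoids and coumarins. For coumarins, a methyltransferase such as CCoAOMT1 makes feruloyl-CoA, F6'H1 hydroxylates its ring, and COSY promotes the ring closure that gives scopoletin, a fluorescent compound known from plant defence and, with its derivatives, from iron uptake by roots. F6'H2 encodes a second enzyme with the same activity as F6'H1.

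Values below are normalised read counts, that is the deposited values rescaled between libraries, as mean ± SD with n = 4 libraries. Log2 differences (mta less WT) are of log2(value + 1), with the standard error of the limma fit, and that scale understates changes of low genes. The members were proposed with this very contrast known, so their genotype differences are a description and carry no test. In bulk leaves, more or fewer cells of a type and more or less RNA per cell cannot be told apart.

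If 1 step of the deposited values is 1 read, the libraries held 17132897 to 25377345 reads in genes. With 1 step taken as 1 read, WT 2 and WT 3 were the closest pair within a genotype (chi-square per degree of freedom 1.72, against 5.22 to 61.4 for the other pairs). They were kept as separate samples. WT 1, mta 1 and mta 4 stood apart on the second principal component, which held 26.2% of the variance, and its loadings ran with transcript length. They did not lie together there: WT 1 was at 31.43 and mta 1 at 29.47, but mta 4 was at -45.48. MTA itself was lower in mta, at 51.0 ± 10.7 against 72.5 ± 8.32 (log2 difference -0.52 ± 0.15, limma adjusted p = 0.0312, and 0.0536 to 0.0944 without WT 2, WT 3, WT 4 or mta 1). Upper-quartile factors gave a limma adjusted p of 0.0532, and 13 of 20 alternatives kept the call. A value per gene does not separate transcripts of the mutant gene from those of the added MTA copy. Over all tested genes limma called 26.4% at an adjusted p of 0.05, 13.3% higher and 13.1% lower in mta, and the genotypes did not overlap for 28.4%. With WT 2 and WT 3 averaged into 1 sample, 1838 genes were called higher and 1716 lower, against 2436 and 2406 with both kept. The share called thus depends on whether these 2 libraries count as separate samples. The median log2 difference of all tested genes was -0.02, but -0.16 with the authors' scaling.

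F6'H1, the enzyme at the branch point to scopoletin, had the largest log2 difference of the 9 listed members. Its normalised read counts in WT were 13.3, 6.77, 9.93 and 9.32, and in mta 100.1, 85.4, 78.2 and 70.8. Even the lowest mta library lay far above the highest WT library in the plot of members by library. The means were 9.84 ± 2.70 and 83.6 ± 12.5, a ratio of 8.50, and the log2 difference was 2.99 ± 0.19. This ranked 18 among the 18328 tested genes when ordered from the highest difference down. If 1 step is 1 read, WT values rested on few reads. There were 20 steps in the lowest library and 326 in the highest mta library. Without WT 1, mta 1 and mta 4 the log2 difference was 3.12.

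**Figure D1:**
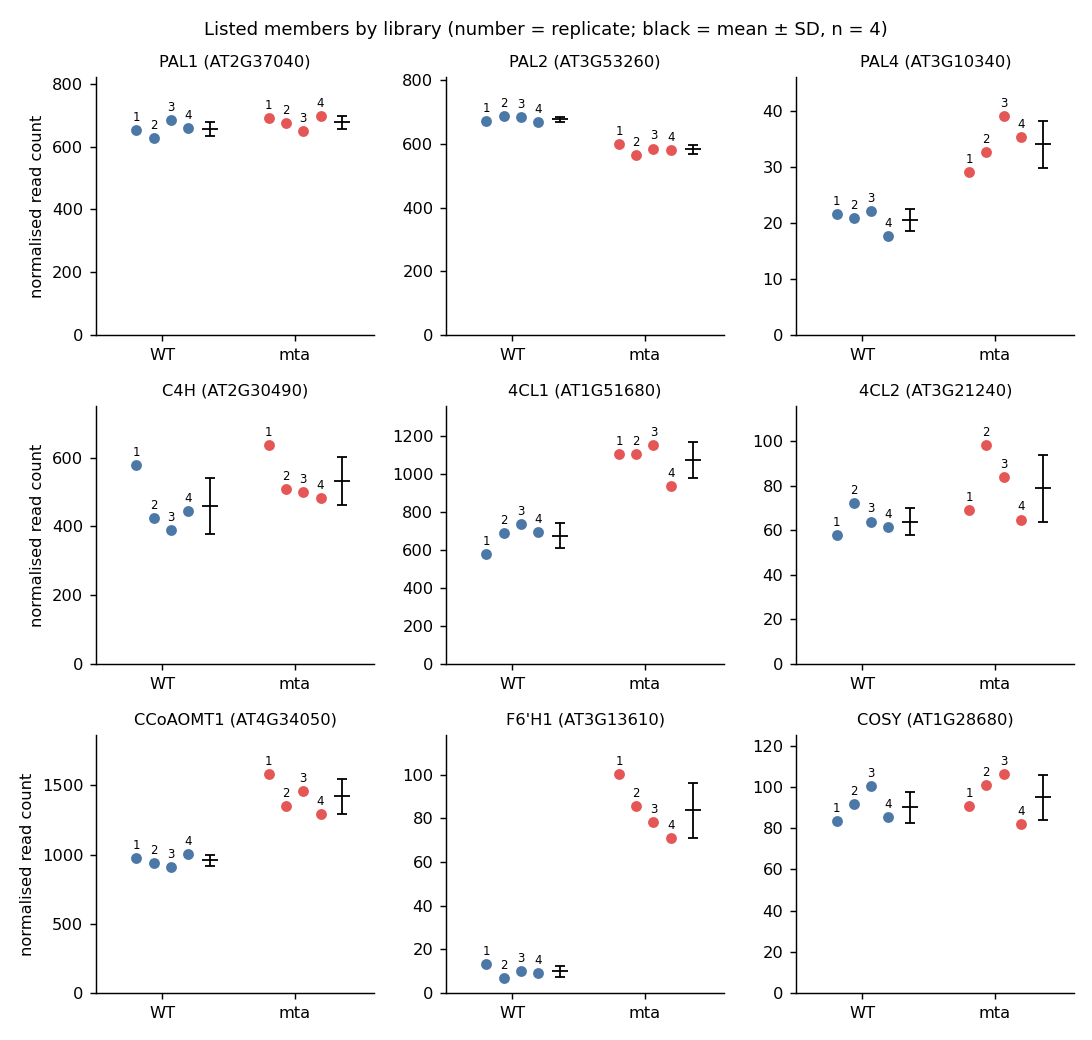
Normalised read count of each of the 9 listed members in every library, with the 4 WT libraries in blue and the 4 mta libraries in red, numbered by replicate, and the mean ± SD in black. PAL4, 4CL1, CCoAOMT1 and F6'H1 lie above WT in all 4 mta libraries, PAL2 lies below, and the other 4 genes overlap; each vertical axis starts at 0 and has its own scale.

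COSY, the next enzyme on the scopoletin route, showed no such separation. Its WT values were 83.5, 91.8, 100.3 and 85.3 and its mta values 91.0, 101.1, 106.2 and 81.9, so the genotypes overlapped. The log2 difference was 0.07 ± 0.11, and it ranged from -0.07 with the authors' scaling to 0.18 without WT 1, mta 1 and mta 4. Per kilobase of transcript, the level of F6'H1 was 0.115 ± 0.0377 of that of COSY in WT and 0.926 ± 0.159 in mta. The ratio was 0.167, 0.0771, 0.103 and 0.114 in the WT libraries and 1.15, 0.882, 0.769 and 0.904 in the mta libraries. COSY therefore stood far above F6'H1 in every WT library and near it in every mta library.

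CCoAOMT1, which methylates caffeoyl-CoA for both lignin and coumarins, was the member with the highest level per kilobase in both genotypes. Its normalised read counts were 978.6, 939.7, 912.2 and 1004 in WT and 1581, 1353, 1463 and 1291 in mta. All mta libraries were above all WT libraries, with means of 1422 ± 128 and 958.6 ± 40.7 and a log2 difference of 0.57 ± 0.09 (0.42 with the authors' scaling). Relative to CCoAOMT1, the per-kilobase level of F6'H1 was 1.08 ± 0.285% in WT and 6.19 ± 0.553% in mta.

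At the entry step the PAL genes went different ways. PAL1 was nearly level, with 653.5, 627.7, 684.1 and 659.0 in WT and 690.7, 673.4, 650.2 and 695.6 in mta, and a log2 difference of 0.05 ± 0.08 that turned to -0.10 with the authors' scaling. PAL2 was at 672.3, 686.3, 683.3 and 668.8 in WT and at 599.6, 565.5, 585.8 and 579.7 in mta. Every mta library of PAL2 was below every WT library, although the log2 difference was small, at -0.22 ± 0.08 (-0.36 with the authors' scaling and -0.15 after correction for transcript length). PAL4, the scarcest of the family, was at 21.6, 21.0, 22.2 and 17.7 in WT and at 29.2, 32.7, 39.1 and 35.4 in mta. Its mta libraries were all above WT, with a log2 difference of 0.70 ± 0.14 and with 62 to 132 steps behind each value.

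Taken over the family of 4 PAL genes, including PAL3, which is not a member, the summed level per kilobase was 495.3 ± 8.61 in WT and 473.7 ± 9.85 in mta. Every mta library had a lower sum (464.2 to 483.1) than every WT library (488.8 to 507.9), a ratio of means of 0.956. Whether this small gap holds with other scalings was not tested. The log2 differences of PAL1 and PAL2 were 0.11 and -0.16 with upper-quartile factors, and -0.10 and -0.36 with the authors' scaling. PAL1 held 45.2 ± 1.07% of the summed level in WT and 48.8 ± 0.863% in mta, while PAL2 held 47.4 ± 0.795% and 42.6 ± 0.802%. PAL2 had the larger share of the pair in every WT library and PAL1 in every mta library. PAL4 held 1.53 ± 0.143% in WT and 2.65 ± 0.356% in mta, so its higher level added little to the family's sum.

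For the 4CL genes the sum was larger in mta. 4CL1, the main ligase gene of these leaves, was at 579.9, 690.7, 735.8 and 697.2 in WT and at 1105, 1106, 1151 and 939.3 in mta. All mta libraries were above all WT libraries, and the log2 difference was 0.67 ± 0.10 (0.53 with the authors' scaling). 4CL2 was at 58.1, 72.2, 64.0 and 61.4 in WT and at 69.1, 98.2, 83.8 and 64.9 in mta, which overlapped, with a log2 difference of 0.29 ± 0.14. This was 0.15 with the authors' scaling, 0.18 without mta 2, and 0.47 when WT 1, mta 1 and mta 4 were all omitted. Its neighbour in the annotation, 4CL5, which is not a member, was not called (log2 difference 0.10 ± 0.10, limma adjusted p = 0.490). Summed per kilobase over 4CL1, 4CL2, 4CL3 and 4CL5, the family stood at 390.1 ± 34.4 in WT and 580.1 ± 51.3 in mta, a ratio of 1.49. 4CL1 held 76.6 to 79.5% of it in the WT libraries and 82.3 to 84.8% in the mta libraries.

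**Figure D2:**
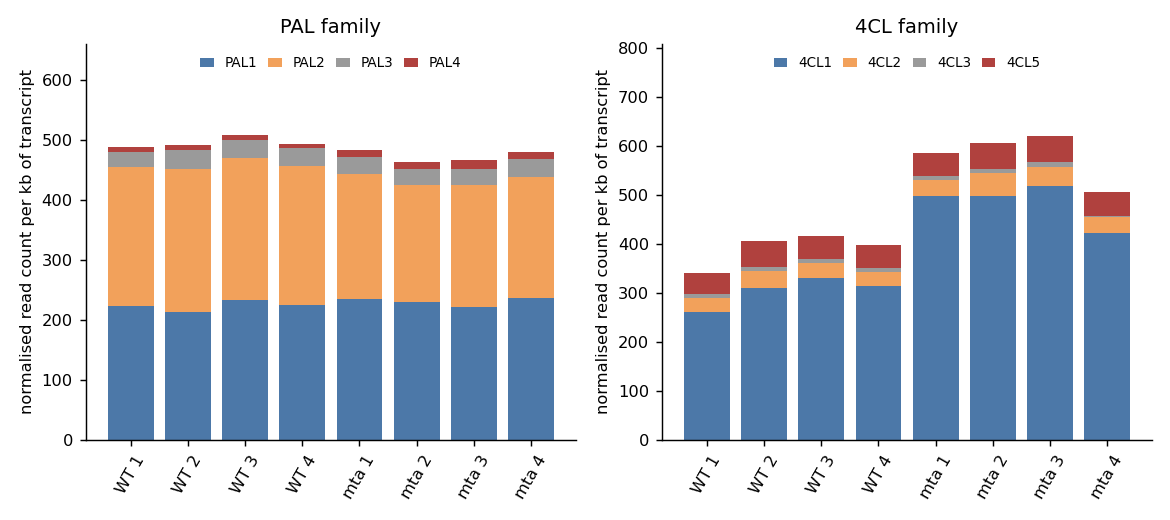
Summed level of the 4 PAL genes (left) and the 4 4CL genes (right) in each library, as normalised read count per kilobase of the longest annotated transcript, stacked by gene. The PAL sums lie at 488.8 to 507.9 in WT and 464.2 to 483.1 in mta, with a smaller part of PAL2 in mta, and the 4CL sum is larger in all 4 mta libraries, mainly through 4CL1. Sums with other scalings are not shown.

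C4H, a cytochrome P450 between PAL and 4CL, overlapped between genotypes. Its values were 577.7, 424.8, 389.0 and 445.1 in WT and 635.8, 509.8, 499.0 and 483.1 in mta. The highest library of each genotype was replicate 1, which lay 0.35 above the WT mean and 0.27 above the mta mean on the log2 scale. The log2 difference between genotypes was 0.22 ± 0.13. It was 0.08 with the authors' scaling, 0.10 without mta 1, and 0.28 when WT 1, mta 1 and mta 4 were all omitted. The same 2 libraries were also the highest of their genotype for F6'H1, by 0.44 and 0.27 on the log2 scale, whereas 4CL1 was lowest in WT 1 and mta 4.

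Per kilobase, the order of levels in WT was CCoAOMT1 (618.4 ± 26.2), 4CL1 (304.5 ± 30.2), PAL2 (234.7 ± 2.93), PAL1 (223.8 ± 7.90), C4H (220.4 ± 39.5), COSY (58.8 ± 4.96), 4CL2 (30.7 ± 2.88), PAL4 (7.58 ± 0.740) and F6'H1 (6.69 ± 1.84). The libraries of PAL2 and PAL1, of PAL1 and C4H, and of PAL4 and F6'H1 overlapped in this order, so these neighbours were not apart by more than their spread. In mta the order was CCoAOMT1 (917.6 ± 82.3), 4CL1 (484.3 ± 41.9), C4H (255.4 ± 33.7), PAL1 (231.1 ± 7.00), PAL2 (201.8 ± 4.90), COSY (61.9 ± 7.04), F6'H1 (56.9 ± 8.47), 4CL2 (37.9 ± 7.25) and PAL4 (12.5 ± 1.54). There, C4H overlapped PAL1 and COSY overlapped F6'H1. F6'H1 moved from the last of the 9 to a place above 4CL2 and PAL4, and its per-kilobase level moved from the 13.2 percentile of all tested genes to the 56.1 percentile.

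Counted together, 4 of the 9 tested members were among the genes called higher in mta (PAL4, 4CL1, CCoAOMT1 and F6'H1), a direction in which 13.3% of all tested genes were called, and the other 5 were not called. The members' median log2 difference was 0.29, beside -0.02 over all tested genes, and it was 0.15 with the authors' scaling. PAL2 was called lower with that scaling and without WT 1, mta 1 or mta 4, and 4CL2 was called higher without mta 4. Because the genes were proposed with this contrast known, nothing is read from these counts. Without WT 1, mta 1 and mta 4, 6 members were called higher and 1 lower (C4H and 4CL2 in addition, and PAL2).

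The other genes of the pathway were then taken from lists by pathway role. Earlier results of the series were known when the lists were written, so they cannot be taken as independent of this contrast. Of 69 tested genes in 6 lists, limma called 16 higher and 6 lower in mta (3 lower without WT 4 or mta 2), and their median log2 difference was 0.09. Over all tested genes 13.3% were called higher and 13.1% lower, with a median of -0.02. The counts by list below stand beside these shares, and no list was tested as a set.

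**Figure D3:**
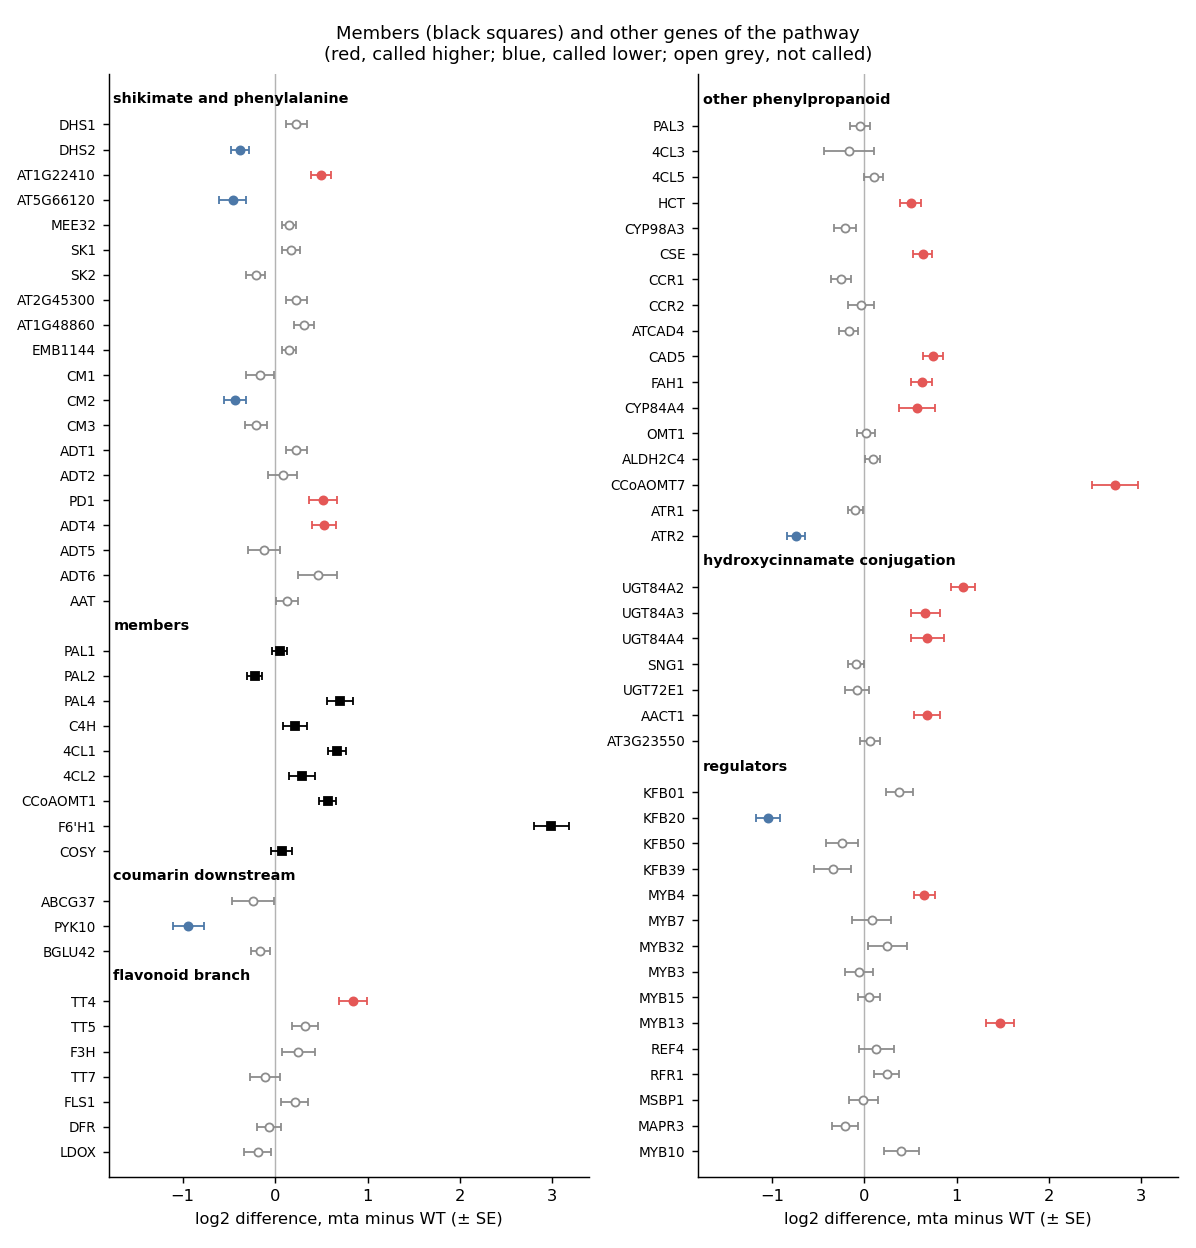
Log2 difference (mta minus WT, ± SE of the limma fit, n = 4 libraries per genotype) of the 9 tested members, as black squares with no call marked, and of the 69 other tested genes of the pathway, filled red or blue where called higher or lower and open grey where not called. F6'H1 and CCoAOMT7 lie farthest to the right, at 2.99 and 2.71, and KFB20 farthest to the left, at -1.04.

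Among 17 other phenylpropanoid and monolignol genes, 6 rose, 1 fell (2 without mta 1) and 10 did not pass. With the authors' scaling 5 rose and 4 fell. CCoAOMT7 (AT4G26220), a relative of CCoAOMT1, rose from 2.03 ± 0.993 to 18.3 ± 3.35, with 1.27, 3.39, 1.31 and 2.15 in WT and 13.9, 18.1, 19.1 and 22.0 in mta (log2 difference 2.71 ± 0.25, limma adjusted p = 3.69e-05). Only 1 WT library reached the filter value of 3, so CCoAOMT7 was tested through the mta group, where it is high; with no filter the limma adjusted p was 3.25e-05. It was a small part of the pair, at 1.81 ± 0.460% of their summed per-kilobase level in mta. HCT, which makes the shikimate ester on the way to caffeoyl-CoA, rose from 745.3 ± 46.3 to 1063 ± 153 (0.50 ± 0.11, limma adjusted p = 0.00766). The caffeoyl shikimate esterase gene, annotated as LysoPL2, rose from 115.0 ± 6.81 to 178.5 ± 13.6 (0.63 ± 0.10, limma adjusted p = 0.000869).

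Toward lignin and sinapate, CAD5, which reduces cinnamyl aldehydes to alcohols, rose from 648.6 ± 85.6 to 1078 ± 113 (log2 difference 0.74 ± 0.11, limma adjusted p = 0.000998). FAH1, the ferulate 5-hydroxylase of the syringyl and sinapate branch, rose from 1179 ± 65 to 1830 ± 249 (0.62 ± 0.11, limma adjusted p = 0.00215). Its relative CYP84A4, named after its value was seen, was at 13.9 ± 3.14 and 20.9 ± 3.79 (limma adjusted p = 0.0474), with an adjusted p of 0.0925 to 0.134 once WT 2, WT 3, WT 4, mta 1 or mta 3 was omitted. CYP98A3, which acts between HCT and CCoAOMT1, was not called (-0.21 ± 0.12), and neither was the caffeate methyltransferase gene OMT1 (0.02 ± 0.10).

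ATR2, one of a pair of reductases that pass electrons to P450 enzymes such as C4H, fell. Its values were 1541, 1899, 1896 and 1900 in WT and 1126, 1132, 1100 and 957.5 in mta. Every mta library was below every WT library (log2 difference -0.74 ± 0.10, limma adjusted p = 0.000486). The other reductase gene of the pair, ATR1, was not called.

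In the list of 12 genes for the attachment of sugars, acids or amines to hydroxycinnamates, 7 were tested, of which 4 rose and 3 did not pass. The list also holds genes that do not carry out this step themselves. UGT84A2, which makes sinapoyl glucose, rose from 76.0 ± 5.32 to 161.9 ± 26.3 (log2 difference 1.07 ± 0.13, limma adjusted p = 0.000220). AACT1, which couples coumaroyl-CoA to agmatine, rose from 81.4 ± 11.3 to 131.5 ± 18.4 (0.68 ± 0.14, limma adjusted p = 0.00439). UGT84A3 (0.66 ± 0.16, limma adjusted p = 0.00991) and UGT84A4 (0.68 ± 0.18, limma adjusted p = 0.0188) also rose, and they are close relatives whose counts are uncertain singly. For UGT84A4, omitting WT 3, mta 1, mta 2 or mta 3 gave a limma adjusted p from 0.0505 to 0.0620, which ended the call. SNG1, which uses sinapoyl glucose to make sinapoyl malate, was not called (-0.09 ± 0.09). UGT72E2, a glucosyltransferase gene of monolignols that was not tested and is named after its values were seen, was listed in no WT library and in all 4 mta libraries, at 7.64, 7.07, 6.25 and 1.88.

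Of 7 genes that act on coumarins after scopoletin, 3 were tested. PYK10, a beta-glucosidase that is abundant in roots and releases scopoletin from its glucoside, fell from 131.0 ± 4.67 to 69.8 ± 19.7 (log2 difference -0.94 ± 0.17, limma adjusted p = 0.00239). Its relative BGLU22, not tested and named after its values were seen, was listed at 3.49, 5.42, 7.05 and 2.39 in WT and in no mta library. AT3G12900 and CYP82C4, which hydroxylate coumarins in iron-starved roots, were listed in none of the 8 libraries. ABCG37, a coumarin exporter of roots, was at 5.26 to 9.15 in WT and 4.19 to 7.78 in mta and was not called (-0.24 ± 0.23).

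F6'H1 is also a gene of the root response to iron shortage, and 14 genes of that response were examined beside it. Of 7 tested, 2 fell and 5 did not pass. None rose in 15 of 20 alternatives, and 1 rose in the others, among them median-ratio factors, upper-quartile factors and the fit without mta 4. OPT3, named after its value was seen, had the highest log2 difference of the tested genes of this list (0.32 ± 0.11, limma adjusted p = 0.0547). BTS, an E3 ligase gene that restrains the response, fell from 330.4 ± 61.8 to 180.3 ± 35.0 (log2 difference -0.87 ± 0.17, limma adjusted p = 0.00327). NAS4, of nicotianamine synthesis, fell from 48.8 ± 5.79 to 35.6 ± 2.89 (-0.44 ± 0.12, limma adjusted p = 0.0237, and 0.0541 to 0.0726 without WT 3, WT 4, mta 2 or mta 3). IRT1 and bHLH39 were listed in no library, and bHLH38 in 1 library of each genotype. BHLH101, not tested and named after its values were seen, was listed at 1.90, 1.35, 2.09 and 2.63 in WT and in no mta library.

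Upstream, of the 20 genes of the shikimate pathway and phenylalanine synthesis, 3 rose, 3 fell and 14 did not pass. Over all tested genes 13.3% were called higher and 13.1% lower. The genes of the first enzyme of the shikimate pathway were split. AT1G22410 (DHS3) rose from 1264 ± 108 to 1795 ± 212 (log2 difference 0.50 ± 0.11, limma adjusted p = 0.00686), whereas DHS2 fell from 1475 ± 122 to 1131 ± 115 (-0.38 ± 0.10, limma adjusted p = 0.0184). The arogenate dehydratase genes of the last step, ADT4 (0.53 ± 0.13, limma adjusted p = 0.0137) and ADT3, annotated as PD1 (0.52 ± 0.15, limma adjusted p = 0.0251), rose. AT5G66120, a dehydroquinate synthase gene (-0.46 ± 0.15, limma adjusted p = 0.0395), and the cytosolic chorismate mutase gene CM2 (-0.43 ± 0.12, limma adjusted p = 0.0238) fell. All but AT1G22410 lost the call in some settings: leaving out single libraries gave an adjusted p of up to 0.0516 for ADT4 (without mta 3), 0.0611 for DHS2 (without WT 4 or mta 2), 0.0699 for CM2 (without WT 4 or mta 2), 0.0766 for PD1 (without WT 2, WT 3, mta 1, mta 2 or mta 3) and 0.110 for AT5G66120 (without WT 2, WT 3, WT 4 or mta 2). The number that rose was 5 without WT 1, 7 without mta 4 and 1 without mta 3, and the number that fell was 0 without WT 4 or mta 2.

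Among 15 tested regulators, 2 rose and 1 fell, beside 13.3% and 13.1% of all tested genes. MYB4, a repressor of C4H, rose from 40.8 ± 3.24 to 64.8 ± 5.39 (log2 difference 0.65 ± 0.11, limma adjusted p = 0.00182). MYB13, a relative of MYB15, which acts on phenylpropanoid genes in immunity, rose from 13.1 ± 2.05 to 38.1 ± 4.70 (1.47 ± 0.15, limma adjusted p = 6.71e-05), while MYB15 itself was not called (0.05 ± 0.12). AT1G80440 (KFB20), a Kelch repeat F-box gene whose product marks PAL proteins for breakdown, fell from 1223 ± 35 to 600.5 ± 109.3 (-1.04 ± 0.13, limma adjusted p = 0.000236). The other 3 genes of that group were not called.

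In the flavonoid branch, which draws on the same coumaroyl-CoA, 1 of 7 genes rose, beside 13.3% of all tested genes, and 6 did not pass. This was TT4, the chalcone synthase gene of its first step, from 320.9 ± 53.2 to 576.3 ± 103.8 (log2 difference 0.84 ± 0.15, limma adjusted p = 0.00205). The other 6 had log2 differences between -0.19 and 0.32. Omitting mta 4 alone gave a count of 2, and omitting it together with WT 1 and mta 1 gave 3.

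The profile of F6'H1 over the 8 libraries was compared with those of 17494 other tested genes with a mean of at least 5, after centring each gene on its own mean. The nearest 4, by the root mean square difference on the log2 scale, were AT4G08860 (0.238), the subtilase gene SBT3.3 (0.240), AT1G59930 (0.240) and AT4G10500 (0.264), the last a dioxygenase gene of salicylic acid hydroxylation. Their log2 differences between genotypes were 2.80, 3.17, 2.82 and 2.84. AT4G08860 was at 1.02 to 1.43 in WT and 10.5 to 17.7 in mta, so it entered the comparison only through its mta values, and 15 of 20 alternatives tested it. AT4G10500 was at 64.7 to 87.5 in WT and 453.0 to 582.6 in mta. The likeness rests mainly on the gap between the genotypes, which all 5 genes share.

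**Figure D4:**
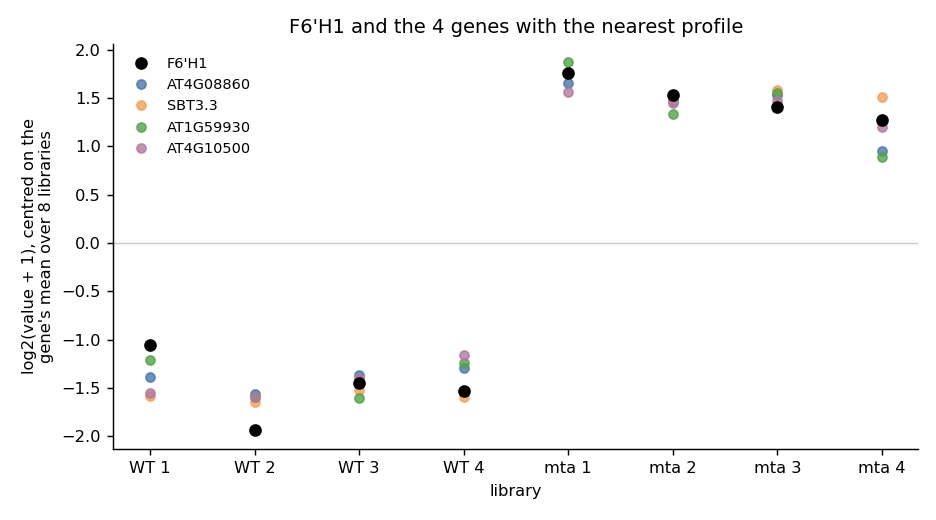
log2(value + 1) of F6'H1 (black) and of the 4 genes with the nearest profiles in each of the 8 libraries, each gene centred on its own mean over the libraries, so that 0 is that mean. All 5 genes lie below 0 in the 4 WT libraries and above 0 in the 4 mta libraries.

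Markers of leaf cell types were set beside these results. Over all tested genes 13.3% were called higher and 13.1% lower, and the sums below follow the most abundant genes of each list. Mesophyll markers were abundant, led by RBCS1A (134812 ± 10240 in WT and 251944 ± 63868 in mta, limma adjusted p = 0.0117) and CAB2 (53791 ± 14412 and 58847 ± 10894, not called), 2 of 5 rose, and their summed value ranged from 237971 to 296143 in WT and from 309703 to 522210 in mta. For xylem and secondary walls, where much phenylpropanoid product is laid down, 1 of 10 tested markers rose and 9 did not pass, and the sum of all 13 ranged from 456.1 to 483.7 in WT and from 529.2 to 605.3 in mta. XCP2 rose (log2 difference 0.54 ± 0.13, limma adjusted p = 0.0104), XCP1 was not called (0.25 ± 0.14), and the fibre regulator gene NAC012 was unlisted in all libraries. XCP1 and XCP2, the most abundant of this list, had means of 143.0 and 99.2 in WT and of 168.5 and 144.7 in mta. The epidermis and guard cell markers, of which 3 of 7 rose and 1 fell, summed to 627.2 to 735.4 in WT and 758.1 to 853.1 in mta, with ATML1 at 0.05 ± 0.09 (not called) and the stomatal gene FMA at 0.47 ± 0.12 (limma adjusted p = 0.0139; the authors' scaling gave 0.119, and omitting mta 3 gave 0.0519). The 2 phloem markers summed to 933.9 to 1025 and 1098 to 1387, with SUC2 called (0.33 ± 0.10, limma adjusted p = 0.0291; the authors' scaling gave 0.0549, and omitting any library but WT 1 or mta 4 gave 0.0556 to 0.0939) and APL not (0.26 ± 0.11). The 4 root markers, PYK10 and BGLU22 among them, summed to 128.4 to 141.3 in WT and 49.2 to 96.0 in mta, PYK10 being the 1 tested, with IRT1 and BGLU21 unlisted, and the 3 seed storage and oil body genes were unlisted throughout, as was ABI3. The part of these marker differences in the differences of the members and their pathway was not tested.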

How the data were processed

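The deposited values are a signal for each gene, made by the authors from read counts through division by 1 factor for each library, and rows below 1 are left out. Per the submitters' processing notes the tools included STAR 2.4.0, HTSeq and DESeq2 with build TAIR10; order and settings are not given in the sources used here. In every library 100% of values were whole multiples of 1 step (within 0.02 of a step plus rounding), with 2.73 to 3.98 steps per unit; as low rows were left out, the steps were not taken as recovered reads and no count model was run. Not used were reads outside features (4.92 to 5.97% of the library), ambiguous reads and reads with several alignments. Ambiguous reads were 0.399 to 0.406% in WT and 0.359 to 0.384% in mta. Reads with several alignments were 6.06 to 7.07% in WT and 8.03 to 9.07% in mta. The bearing of these differences on genes with close relatives was not tested.

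Unlisted genes were set to 0, and genes reaching 3 in 4 or more libraries were tested. After rescaling with factors from the trimmed mean of M values (trims 0.3 and 0.05), limma 3.58.1 (R 4.3.3) was run on log2(value + 1) with its trend option, genotype as the only term and Benjamini-Hochberg adjustment over all tested genes at 0.05. Symbols and transcript lengths came from the RefSeq annotation of TAIR10.1, which matched 20582 of 20690 identifiers; since the builds differ in name, no coordinates or sequences are given. Figures were drawn with matplotlib 3.10.9. The fit was also run on simulated counts that held no library or transcript length effects, so that run does not cover the spread between these libraries.

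The members, the lists, the tests and the alternatives were chosen with earlier results of these data known. The text names all members, MTA and ABI3; up to 6 called genes of each pathway list with the smallest adjusted p; the 2 most abundant genes of each marker list; and the 4 genes with profiles nearest that of F6'H1. Other genes were named outside this rule with values in view, which is stated beside some of them. The rest are relatives of a named gene or other list genes that gave no call or were unlisted, such as CYP98A3, OMT1, SNG1, ABCG37 and NAC012. Alternatives covered scaling, pseudocount, filter, library weights, a replicate block, transcript length and left-out or averaged libraries.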

Additional observations from a re-analysis of the deposited data

Results flagged for a closer look

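A library was looked at again where it lay far from the other 3 of its genotype, that is where its gap to the nearest one, as a part of the range of the 4, exceeded Dixon's critical value. Among 96 groups of 4 examined, 4 were marked, and chance alone marks about 1 in 20; none of them was a member. In WT 1, ATR2 was at 1541, against 1896 to 1900 in the other WT libraries, MYB13 was at 16.2, against 11.8 to 12.4, and XCP1 was at 187.6, against 127.4 to 128.8. In mta 3, XCP1 was at 139.0, against 175.8 to 182.0 in the other mta libraries. Without WT 1 the log2 difference was -0.85 for ATR2, 1.53 for MYB13 and 0.35 for XCP1, which then passed (limma adjusted p = 0.0450).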

How the results depend on the processing

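With upper-quartile factors PAL1 was at 0.11 and PAL2 at -0.16 (log2 difference), and 3 other pathway genes were called lower. With the authors' scaling alone PAL1 was at -0.10, PAL2 at -0.36, 4CL1 at 0.53 and CCoAOMT1 at 0.42, and 4249 of all genes, 12 other pathway genes and 1 member were called lower. F6'H1 was at 2.59 with a pseudocount of 5. After the length correction PAL1 was at 0.11 and PAL2 at -0.15. Library weights gave 4560 genes higher and 5130 lower, 27 and 11 among the other pathway genes, and 1 member lower. Leaving out WT 1, mta 1 and mta 4 together gave 3885 genes higher and 4407 lower, and 1 member lower. Leaving out 1 library at a time gave 1532 (without mta 3) to 3141 genes higher, 1561 (without mta 2; 1589 without WT 4) to 3402 lower, 3 to 7 other pathway genes lower, 0 to 1 member lower, and -0.26 to -0.20 for PAL2. The cause of these shifts was not tested.

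Replicate numbers did not pair the samples: the deviations of same-numbered libraries correlated at 0.465, 0.083, -0.204 and -0.345, and the numbers mark no stated batch. With a replicate block 2301 genes were called higher and 2215 lower, and the call of AT5G66120 was lost (limma adjusted p = 0.0531). Of 33 named genes outside the members that passed, 22 passed under every alternative that tested them and 33 kept their sign. Values of few steps, such as F6'H1 in WT, have wide counting error if 1 step is 1 read, and levels below 1 were not measured.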
